A study of Nothobranchius furzeri with 16 samples.

Results

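The cell cycle and DNA replication genes described here were chosen by a rule on symbols, with earlier results of these data known. They are the genes of the footprint table whose symbol starts with MCM and a digit, CDC and a digit or A, CDK and a digit, CCNA, CCNB, CCND, CCNE, CENP, RFC and a digit, POLA, POLD, POLE, AURK or BUB, together with PCNA, TOP2A and MKI67, with any paralogue letter or copy number. The rule found 154 of 28494 symbols, and MKI67, CCNA2, CDK5 and AURKA are not among them. For RNA, 50 of 26739 gene IDs could be paired with a name that meets the same rule. The symbols were sorted by role into 4 groups tied to cell division, namely replication origin and helicase genes, the clamp with its loader and the replicative polymerases, cyclins with their kinases, and genes of mitosis and the kinetochore. A last group of 69 symbols is caught by the rule but was sorted under other roles, such as the small GTPase CDC42 and its effectors or the neuronal kinase activator CDK5R1. The sorting is coarse, since CENPJ, CDC34 and CDK7, which stand in this group, also have parts in the cell cycle.

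The brains came from male African turquoise killifish (Nothobranchius furzeri), an annual fish with a short life span, of strain MZM-04/10p. Young fish were 6 weeks and old fish 26 weeks of age, and no treatment or altered genotype is given for either age. An Illumina TruSeq kit, which does not mark the strand, gave 4 RNA libraries per age, and ART-seq, which sequences the fragments that ribosomes shield from nuclease, gave 4 other libraries per age, made without removal of ribosomal RNA. The old RNA samples carry 22 in their titles and 26 weeks as their age, and the age label was used. The labels do not say that each library is from a separate fish, so p-values measure the spread between these libraries, which may be technical.

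A cell that divides copies its DNA once, and the members follow that course. The MCM proteins form the helicase that is loaded on replication origins and opens the double strand, RFC loads the ring-shaped clamp PCNA, and the polymerases alpha, delta and epsilon copy the strands. Cyclins switch on their CDK partners to move the cell from phase to phase, and the CENP, BUB, AURK and CDC20 proteins serve the kinetochore, the spindle checkpoint and chromosome separation. Fish brains keep dividing progenitors into adult life, and MKI67, PCNA and the MCM genes are in common use as markers of dividing cells.

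Depth set what each assay could show. RNA libraries held between 9461792 and 13771769 counts. Footprint values were deposited as FPKM, and whole reads were recovered from the steps between libraries for 2529 of 2587 symbols above 0 in at least 2 libraries (97.8%, within a tolerance of 0.02 that grew with the square root of the reads). A symbol above 0 in 1 library has no step to compare and was counted as 1 read, the fewest it can stand for, unless its value was under 0.5 FPKM, below which no reads were taken. The 62 symbols that gave no whole reads, the most abundant one among them, held 90.5% to 99.6% of the summed FPKM of a library and are left out of read totals. The recovered reads came to 2159, 998, 872 and 329 reads in the young and 4156, 3126, 3598 and 1874 reads in the old libraries. In RNA, the libraries numbered 1 at both ages stood apart from the other 6 on the first principal component, which held 57.3% of the variance. They correlated with each other at 0.974 and with the rest at between 0.863 and 0.915 (Pearson, log2 CPM), so RNA results are given for all 8 libraries and for replicates 2 to 4.

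In RNA, most of the paired transcripts of the division roles had lower values in old brain, whereas the clamp group was mixed. With all 8 libraries, 6 of 49 tested members passed the test (edgeR quasi-likelihood, Benjamini-Hochberg adjusted p under 0.05 over 16759 genes), against 0.34% of all genes tested. The 6 were MKI67, CCNA2, CCNB1, CDK1, CENPF and MCM6, and all fell with age, against 0.173% of all genes called lower. DESeq2 called 15 members, all lower in old, against 2.27% of all genes. In replicates 2 to 4, 25 of 48 tested members passed the test, against 31.9% of all genes, with 24 lower (15.9% of all genes) and 1 higher (16.0% of all genes). Among the 33 members of the 4 division roles the median log2 fold change, old over young, was −0.82, beside 0.04 over all genes tested and −0.01 over the 5204 tested IDs with a name. In a bulk sample, fewer dividing cells and less RNA per cell cannot be told apart.

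The names of the RNA IDs bear on how these counts can be read. The count table holds IDs without names, and the pairs come from tables of the study, most of them held in part and ordered by test results on other fish. Of the 50 paired IDs, 48 were named only in such tables, so they are a selected share of the family and their direction is not independent evidence. A killifish name was used for 23 of the IDs and only a human match for 27. The human matches include CCNA2, CCNB1, CENPF, MCM7, TOP2A, CCNB2, CCND1 and RFC1, so these identities are less certain. Of the 29 genes called lower with all 8 libraries, 26 carried a name, 20 of them no member. IDs with a name were called more often than all genes. With all 8 libraries, 26 of 5204 tested were called lower, and DESeq2 called 211 lower and 143 higher. In replicates 2 to 4, 1167 of 5182 were called lower and 977 higher. Shares of all genes are thus a low background for the members and for the lists below.

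Calls with all 8 libraries rested on each of 6 libraries. When any of young replicates 2, 3 and 4 or of old replicates 2 and 4 was left out, no gene at all passed the test. In these fits 18 to 22 of 49 or 50 tested members had an unadjusted p under 0.05, as did 1409 to 2025 of all genes. Without old replicate 3 MKI67 alone remained among the members and 10 genes among all. Fold changes kept their direction, and over the fits that each left out 1 library they ran from −2.58 to −2.16 for MKI67, from −2.66 to −2.36 for CCNA2, from −1.84 to −1.66 for CENPF and from −1.94 to −1.49 for MCM6. Without young replicate 1 the count was 13 members of 638 genes, and without old replicate 1 it was 9 of 119.

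MKI67, the Ki-67 protein of the chromosome surface in dividing cells, was at 31.1, 38.3, 37.7 and 36.6 CPM (counts per 1000000 counts, scaled by the trimmed mean of M-values) in the young libraries and at 5.59, 5.92, 11.0 and 5.80 CPM in the old. The ages did not overlap, and the young mean was 5.07 times the old one. The log2 fold change was −2.26 ± 0.28 (SE, edgeR adjusted p = 0.0217), and in replicates 2 to 4 it was −2.33 ± 0.22 (edgeR adjusted p = 0.000343).

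**Figure D1:**
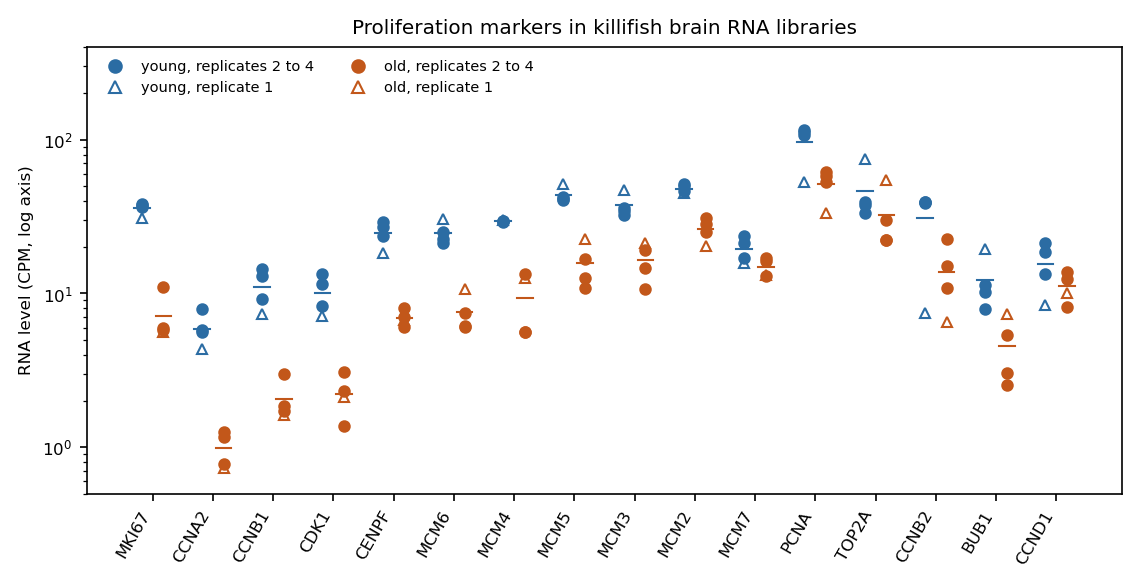
RNA level (CPM, log axis) of 16 cell division genes in the 4 young (blue) and 4 old (orange) libraries, with open triangles for replicate 1 and short lines for the mean of each age. MKI67 lay between 31.1 and 38.3 CPM in young and between 5.59 and 11.0 CPM in old libraries, whereas the ages overlapped for PCNA, TOP2A, CCNB2, MCM7 and CCND1.

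Among the cyclins and their kinases, the genes that passed the test with all 8 libraries act in late cycle phases. CCNA2, the cyclin of S phase and mitotic entry, read 4.36, 5.77, 7.93 and 5.60 CPM in young and 0.730, 1.17, 1.26 and 0.779 CPM in old libraries. It fell by 2.50 ± 0.31 on the log2 scale (SE, edgeR adjusted p = 0.0217). The highest old library was thus below the lowest young one, with 342 counts of this gene over all 8.

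CCNB1, the mitotic cyclin B1, had 7.34, 14.3, 9.21 and 12.9 CPM in young and 1.62, 1.84, 2.98 and 1.73 CPM in old libraries (log2 fold change −2.34 ± 0.33, edgeR adjusted p = 0.0353). Its kinase partner CDK1 had 7.13, 13.4, 8.27 and 11.6 CPM in young and 2.11, 2.33, 3.10 and 1.38 CPM in old libraries (−2.10 ± 0.34, edgeR adjusted p = 0.0429). Both were lower in every old than in every young library, also in the pair of replicate 1 libraries, where the log2 ratios were −2.11 and −1.71.

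CCNB2, another mitotic cyclin, was low in replicate 1 at both ages. It was at 38.7, 39.2 and 39.1 CPM in young replicates 2 to 4 but at 7.47 CPM in young replicate 1, and at 6.57, 22.5, 10.8 and 15.1 CPM in the old libraries. With all 8 libraries it did not pass the test (−1.10 ± 0.52, edgeR adjusted p = 0.363), and in replicates 2 to 4 it fell (−1.27 ± 0.22, edgeR adjusted p = 0.00351). CCNB3 (−1.60) and CDC25B (−1.23), the phosphatase that activates CDK1, also fell in replicates 2 to 4, so that 6 of the 8 members of this role did, against 15.9% of all genes.

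The 2 members of this role that passed neither test, with all 8 libraries or in replicates 2 to 4, act in G1 phase. With all 8 libraries CCNB2, CCNB3 and CDC25B missed the test as well (edgeR adjusted p of 0.363, 0.121 and 0.0658). CCND1, cyclin D1, was at 8.44, 13.4, 21.4 and 18.5 CPM in young and 10.1, 13.9, 8.15 and 12.4 CPM in old libraries (−0.39 ± 0.29, edgeR adjusted p = 0.585). CDK6, which pairs with the D cyclins, had a log2 fold change of −0.04 ± 0.21. Neither passed the test in replicates 2 to 4, with edgeR adjusted p of 0.0665 for CCND1 and 0.218 for CDK6, and whether they changed less than the mitotic cyclins was not tested.

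Of the MCM helicase subunits, MCM6 passed the test with all 8 libraries. MCM6 was at 30.6, 21.3, 22.4 and 25.2 CPM in young and 10.6, 6.12, 7.46 and 6.06 CPM in old libraries, and it fell by 1.64 ± 0.26 on the log2 scale (SE, edgeR adjusted p = 0.0429). MCM4 was nearly level over the young libraries, at 30.2, 29.1, 29.4 and 29.5 CPM, and spread over 12.6, 5.63, 13.3 and 5.62 CPM in the old. MCM5 had 51.6, 42.5, 41.0 and 40.3 CPM in young and 22.7, 12.5, 16.6 and 10.9 CPM in old libraries.

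For MCM2, MCM3, MCM4 and MCM5 every old library was below every young one, although none passed the test with all 8 (edgeR adjusted p of 0.128, 0.135, 0.105 and 0.0733). In replicates 2 to 4 all 4 fell, with log2 fold changes of −0.81, −1.22, −1.86 and −1.64. MCM7, a subunit of the same ring, was at 15.7, 17.0, 21.2 and 23.7 CPM in young and 13.2, 17.0, 13.1 and 16.4 CPM in old libraries. Its ages overlapped, and it passed neither test (−0.30 ± 0.19 with all 8, −0.41 ± 0.17 with edgeR adjusted p = 0.0907 in replicates 2 to 4). The ID of MCM7 was named by its human match, whereas those of MCM2, MCM3, MCM4 and MCM5 carried a killifish name. Whether MCM7 changed less than the other subunits was not tested. CDC7, the kinase that fires loaded origins, had 260 counts in all and passed neither test, so 5 of 7 members of this role fell in replicates 2 to 4, against 15.9% of all genes.

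The clamp group was mixed. PCNA, at a mean of 123 RPKM in young brain, had the highest level per length of the paired members, ahead of CDC42 at 54.9 RPKM. It was at 112, 107 and 115 CPM in young replicates 2 to 4 and 58.1, 52.7 and 62.0 CPM in the old ones, but at 52.8 CPM in young and 33.5 CPM in old replicate 1. Young replicate 1 thus lay among the old libraries, and PCNA missed the test with all 8 (−0.82 ± 0.28, edgeR adjusted p = 0.238) while it fell by 0.95 ± 0.09 in replicates 2 to 4 (edgeR adjusted p = 0.000310).

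POLE, the catalytic subunit of polymerase epsilon, had old libraries at 4.30, 1.84, 3.21 and 3.46 CPM below all young ones at 13.0, 8.26, 8.36 and 8.91 CPM, and it fell in replicates 2 to 4 (−1.58), as did RFC3 (−0.44). POLE, CDC25B and CCNB3 are given although they fall outside the rule for named genes, after their values were seen. In RNA, RFC3, CDK6, CDC7, CENPE and CDC16 fall outside that rule too. The other clamp, loader and polymerase members did not pass either test, and the median of the 10 was −0.02 on the log2 scale. RFC1, the large subunit of the clamp loader, was at 16.9, 16.5, 16.6 and 14.8 CPM in young and 20.3, 20.4, 17.9 and 22.8 CPM in old libraries. All its old libraries were above all young ones, with a log2 fold change of 0.40 ± 0.17 that missed the test (edgeR adjusted p = 0.324), and POLD1, the catalytic subunit of polymerase delta, stood at 0.25 ± 0.18 (edgeR adjusted p = 0.574).

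**Figure D2:**
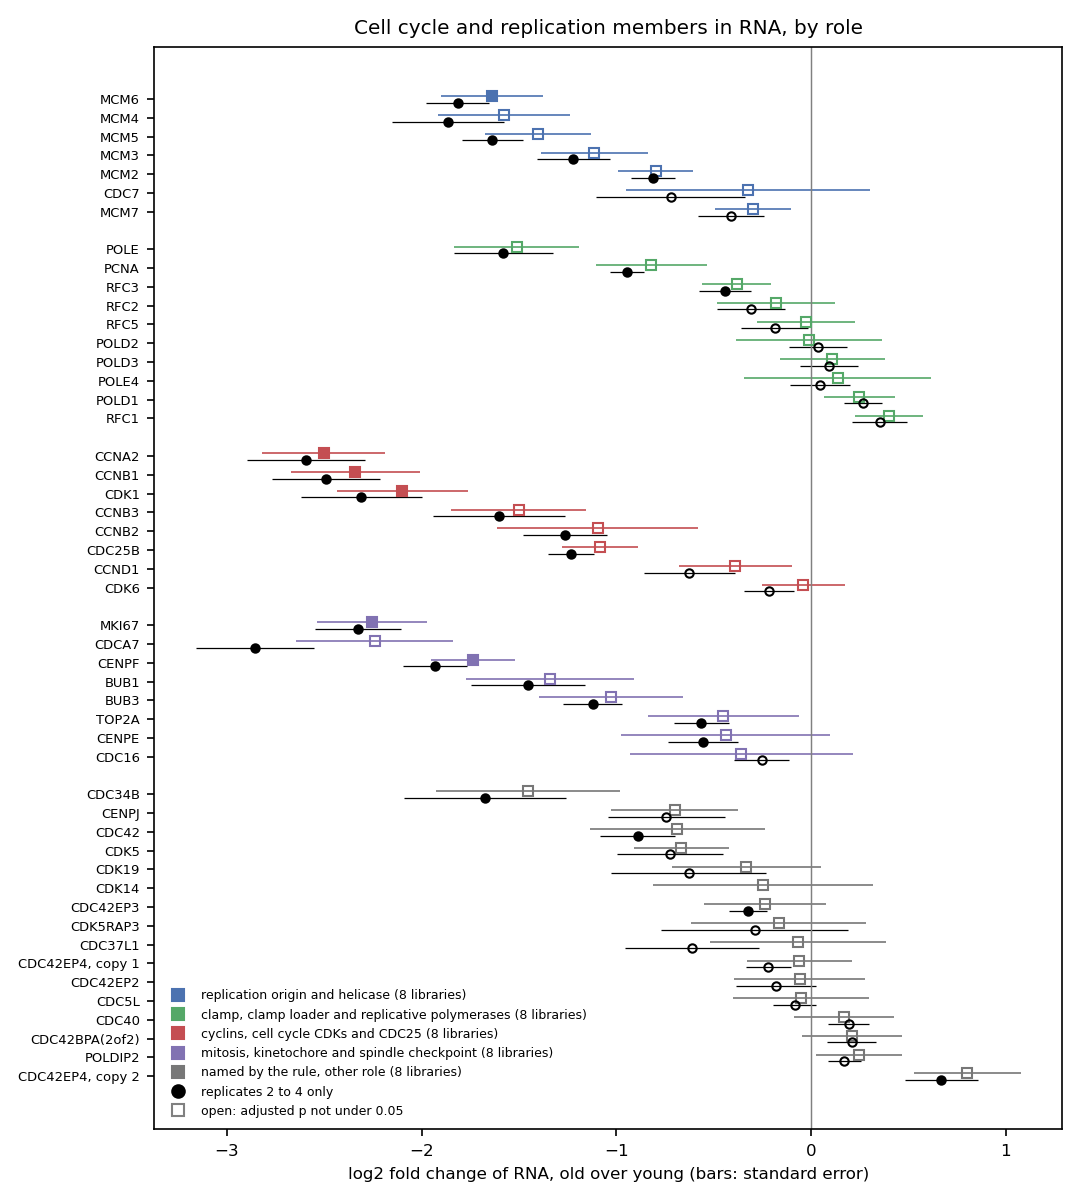
Log2 fold change of RNA, old over young, with its standard error, for the 49 tested members by role; colored squares are the fit of 8 libraries and black circles that of replicates 2 to 4, filled where the adjusted p was under 0.05. Filled squares are MCM6, CCNA2, CCNB1, CDK1, MKI67 and CENPF, and the clamp group spreads from −1.51 for POLE to 0.40 for RFC1.

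In mitosis, 7 of 8 members fell in replicates 2 to 4, against 15.9% of all genes. CENPF, a kinetochore protein of late G2 phase and mitosis, was at 18.4, 23.8, 27.0 and 29.3 CPM in young and 6.73, 6.99, 8.03 and 6.06 CPM in old libraries (−1.74 ± 0.21, edgeR adjusted p = 0.0217). BUB1, a kinase of the spindle checkpoint, was at 19.3, 10.2, 7.93 and 11.4 CPM in young and 7.38, 2.52, 5.39 and 3.03 CPM in old libraries. The old BUB1 values ended just under the lowest young one, and the test with all 8 was missed (−1.34 ± 0.43, edgeR adjusted p = 0.214).

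TOP2A, the topoisomerase that untangles sister chromosomes, was high in replicate 1 at both ages. It had 75.2, 39.0, 33.4 and 37.7 CPM in young and 54.7, 22.2, 30.2 and 22.3 CPM in old libraries. With all 8 libraries it missed the test (−0.45 ± 0.39, edgeR adjusted p = 0.648), and in replicates 2 to 4 it fell by 0.56 ± 0.14 (edgeR adjusted p = 0.0164). CENPE and CDC16 had the same high replicate 1 libraries, and only CENPE passed the test in replicates 2 to 4. Replicate 1 shifted members in opposite directions, with PCNA and CCNB2 low and TOP2A high at both ages, and its part in the results was not tested beyond the fits without it or with a term for it.

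Division-role members summed per library gave the same order of ages. The 33 genes together made 905 to 1035 CPM in the young and 536 to 677 CPM in the old libraries, without overlap. Over all 49 tested members, 18 had every old library below every young one, against 5.63% of all genes tested, and 1, RFC1, had every old library above, against 4.39% of all genes. In replicates 2 to 4 the count was 28 of 48, against 24.4% of all genes.

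Members with other roles had like summed levels at both ages. Their 17 genes summed to 445 to 471 CPM in young and 448 to 484 CPM in old libraries, and none of the 16 tested passed with all 8 libraries in edgeR, DESeq2 or limma. Gene by gene, 12 of the 16 had a log2 fold change below 0 and 4 above, with a median of −0.12 beside 0.04 over all genes. In replicates 2 to 4 the median was −0.29, beside −0.005 over all genes. At an unadjusted p under 0.05 in edgeR, 2 were lower and 1 was higher in old brain, against 7.6% and 7.42% of all genes. In replicates 2 to 4, 3 of 15 were called lower and 1 higher, against 15.9% and 16.0% of all genes. Of 5182 tested IDs with a name, 1167 were called lower and 977 higher there. In these replicates 7 of the 15 had every old library below every young one, against 24.4% of all genes. CDK5, a kinase of neurons that p35 activates and that does not drive division, was at 4.78, 4.21, 4.86 and 5.20 CPM in young and 2.84, 3.50, 1.95 and 3.12 CPM in old libraries. Its ages did not overlap, but it missed the test (−0.67 ± 0.24, edgeR adjusted p = 0.256).

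CDC42, a GTPase of the actin cytoskeleton, was at 8.93, 31.1, 42.9 and 43.5 CPM in young and 10.7, 24.6, 15.5 and 23.1 CPM in old libraries. It was low in replicate 1 at both ages, missed the test with all 8 (−0.69 ± 0.45, edgeR adjusted p = 0.525) and fell in replicates 2 to 4 (−0.89 ± 0.19, edgeR adjusted p = 0.00863). Reads of CDC42 may be shared among its copies, since the footprint table lists 6 symbols of that name. Of the pair of IDs matched to CDC42EP4, an effector of CDC42, the copy with the higher fold change rose in replicates 2 to 4 (0.67 ± 0.19, edgeR adjusted p = 0.0243). It was at 11.3, 23.2, 20.9 and 18.2 CPM in young and 22.8, 43.2, 27.8 and 28.0 CPM in old libraries, and it was the only member to rise there. POLDIP2 (0.25 ± 0.22) and CDC42BPA(2of2) (0.21 ± 0.26) had the next highest values of this group and passed neither test.

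Some genes of division outside the symbol rule fell as well. Their names come from the same tables of the study. This list and the lists below were also chosen with earlier results of these data known. The direction of these genes is thus no independent evidence either. Of 53 tested genes on a list of further replication and mitosis genes, 7 fell and none rose with all 8 libraries (edgeR), against 0.173% of all genes called lower, and at an unadjusted p under 0.05 there were 35 lower and 1 higher, against 7.6% and 7.42% of all genes. DESeq2 called 29 lower and 1 higher, against 2.27% and 1.94% of all genes. The list median was −1.02. KIF11, a spindle motor (−2.41 ± 0.25, edgeR adjusted p = 0.0180), RRM1, a subunit of ribonucleotide reductase (−2.29 ± 0.25, edgeR adjusted p = 0.0180), and NDC80, a kinetochore protein (−2.67 ± 0.32, edgeR adjusted p = 0.0205), had the lowest p. In replicates 2 to 4, 38 of the 53 fell and 3 rose, against 15.9% and 16.0% of all genes, and the risers were KIF23 and a further ID each of RPA1 and RRM2.

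Inhibitors of the cycle had higher values in old brain, short of the test with all 8 libraries. Of 10 tested CDK inhibitor and growth arrest genes none passed in edgeR with all 8 libraries. At an unadjusted p under 0.05 there were 5, all higher in old, against 7.42% of all genes. DESeq2 called 2 genes of the list higher, against 1.94% of all genes. The median was 0.81. CDKN1A, the inhibitor p21, was at 11.0, 33.7, 33.2 and 32.7 CPM in young and 68.5, 277, 275 and 210 CPM in old libraries (log2 fold change 2.998 ± 0.503, edgeR adjusted p = 0.0506). Every old library of this ID was above every young one, and it rose in replicates 2 to 4, where 5 of the 10 genes rose, against 16.0% of all genes, and none fell. A second ID matched to CDKN1A had 1.15 ± 0.40 and GADD45G, a growth arrest gene, 1.36 ± 0.24 with all 8 libraries.

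Markers of radial glia and progenitors and of immature neurons fell in part. Of 24 tested radial glia and progenitor markers, 2 fell with all 8 libraries, both IDs of the Notch ligand DLL1 (−2.13 and −1.56). In replicates 2 to 4, 10 fell and 2 rose, against 15.9% and 16.0% of all genes. Of 9 immature neuron markers STMN1B fell with all 8 libraries (−1.85), and 7 fell in replicates 2 to 4, against 15.9% of all genes. With all 8 libraries, 0.173% of all genes were called lower. The summed levels overlapped between the ages, from 3769.5 to 10852 CPM in young and from 3127 to 8272 CPM in old for the progenitor list, and from 1337 to 2222 CPM and from 901 to 2054 CPM for the immature neuron list. Both sums were lowest in replicate 1, and their part in the member results was not tested.

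Markers of mature neurons (12 tested), oligodendrocytes (7), microglia and leukocytes (2), erythroid (1), endothelial (4), skeletal muscle (4) and retina cells (1) passed no edgeR test with all 8 libraries. In the same order, 2, 2, 2, 0, 2, 0 and 1 of them had an unadjusted p under 0.05. These were higher in old for microglia and endothelial markers and lower for the others, against 7.42% and 7.6% of all genes. DESeq2 called 1 mature neuron and 2 oligodendrocyte markers lower, against 2.27% of all genes. In replicates 2 to 4, 5 of the mature neuron markers fell and 2 rose, and 2 microglia and 2 endothelial markers rose. There, 2 oligodendrocyte, 1 skeletal muscle and 1 retina marker fell. Of all genes, 15.9% were called lower and 16.0% higher in these replicates. The sum over the retina list is not reported here, and the other summed levels overlapped between the ages in each list. For mature neurons they were 989 to 1955 CPM in young and 904 to 2030 CPM in old libraries, and for microglia and leukocytes 22.3 to 38.3 CPM and 34.7 to 120 CPM. No paired ID of the lists summed was at 0 in all libraries.

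**Figure D3:**
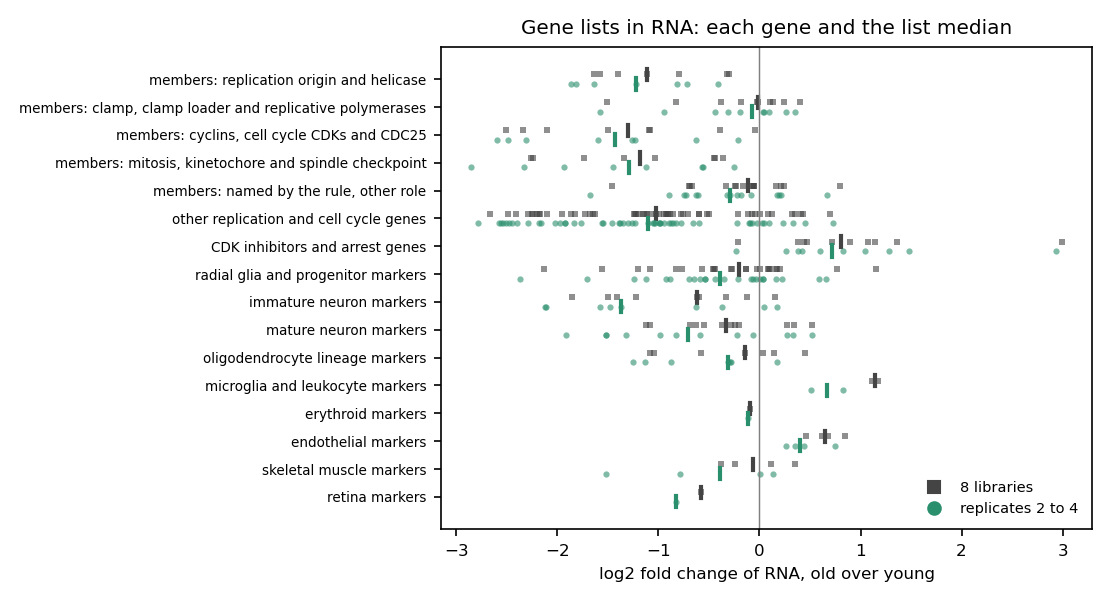
Log2 fold change of RNA, old over young, of each tested gene in the member roles and in the other gene lists, with a bar at the list median (grey for 8 libraries, green for replicates 2 to 4). Medians of the helicase, cyclin and mitosis roles lie at −1.11, −1.30 and −1.19, that of the further replication and mitosis genes at −1.02, and that of the CDK inhibitor and arrest genes at 0.81.

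Ribosome footprints of the members were too few to compare the ages gene by gene. Of the 154 members, 107 were listed at 0 in all 8 libraries (69.5%, against 77.3% of all symbols), 31 were above 0 in 1 library, 16 in at least 2 and none in all 8. Whole reads were recovered for 46 members and summed to 77. With symbols above 0 in 1 library taken as 1 read, they were 30 members with 1 read, 9 with 2, 3 with 3, 2 with 4, and CDK2AP2 with 5 and CDK5R1B with 7 reads. Only CDK5RAP1 was above 0 with no whole read recovered.

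As a share of recovered reads, the members took 0.482% in young (21 of 4358 reads, 95% exact Clopper-Pearson interval 0.299% to 0.736%) and 0.439% in old libraries (56 of 12754 reads, 0.332% to 0.570%). The intervals overlap, and a difference between the ages was not tested. The intervals cover counting error of the pooled reads only and leave out the spread between libraries. The reads carry no molecular identifiers, so copies of 1 fragment could not be told apart. The shares are of recovered reads, not of the library. Over symbols above 0 in at least 2 libraries alone, the mean share was 0.372% in young and 0.332% in old libraries. Per library the share was 0.602%, 0.401%, 0.344% and 0.304% in young (0.413% ± 0.132, SD, n = 4) and 0.313%, 0.608%, 0.417% and 0.480% in old (0.454% ± 0.123, SD, n = 4).

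For the division roles alone the share was 0.252% in young (11 reads, 0.126% to 0.451%) and 0.196% in old libraries (25 reads, 0.127% to 0.289%). These intervals overlap too. The young libraries read 0.278%, 0.301%, 0.115% and 0.304%, and the old ones 0.144%, 0.192%, 0.278% and 0.160%.

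**Figure D4:**
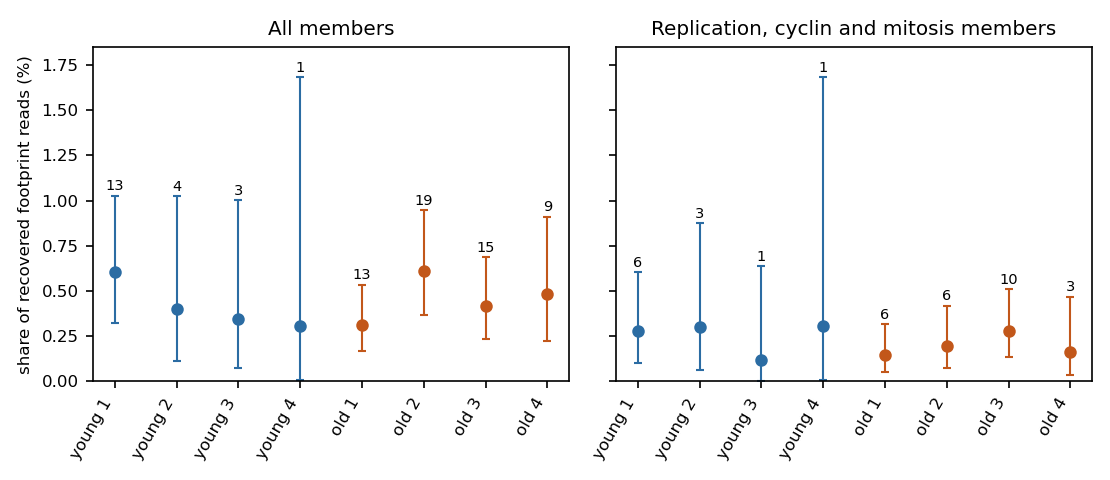
Share of recovered footprint reads (percent) that fell on all 154 members (left) and on the 85 members of the division roles (right), per library, with exact 95% intervals and the number of reads above each. Shares of all members run from 0.304% to 0.602% in young and from 0.313% to 0.608% in old libraries, with intervals that overlap.

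Among the roles, 4 of 14 origin and helicase symbols, 8 of 19 clamp and polymerase symbols, 3 of 15 cyclin and kinase symbols, 8 of 37 mitosis symbols and 24 of 69 symbols with other roles were above 0. MCM4 had 1 read in young replicate 2 and 1 each in old replicates 1, 3 and 4. MCM2 had 1 read in young replicate 3, and 2 and 1 in old replicates 1 and 2. These were the helicase subunits seen in at least 3 libraries, whereas MCM5 had 1 read and MCM3, MCM6 and MCM7 were listed at 0 throughout.

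RFC1 had 1 read each in old replicates 1, 2 and 3 and none of 4358 reads in young, which allows a share of up to 0.0688% by a limit of 3 reads. Its share in old, 0.0235% of recovered reads, lay below that limit. PCNA had 1 read, in old replicate 4, and TOP2A had 1 read in young and 1 in old replicate 2. CCND1(1of2) had 1 read in old replicate 2. CDK1, CCNB1, CCNB2, AURKB and all copies of BUB1 and CDC20 were listed at 0. MKI67, CCNA2, CDK5 and AURKA, which are not among the symbols found by the rule, were not analysed here in footprints.

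CDK5R1B and CDK2AP2 had the most footprint reads of the members, and both were sorted into the group with other roles. MCM2 and MCM4 followed closely, with 4 reads each. CDK5R1B, a copy of the neuronal activator p35 of CDK5, had 1 read in young replicate 1 and 2, 1, 2 and 1 reads in the old libraries. CDK2AP2, a CDK2-associated protein, had 2 reads in young replicate 1 and 1, 1, 0 and 1 in the old ones. The 69 symbols with other roles held 41 of the 77 reads, 10 in young and 31 in old. As a share of recovered reads this was 0.229% in young and 0.243% in old libraries.

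No member passed the footprint test (0 of 36 whose mean reached 1 TPM), and neither did any other gene (limma on log2(TPM + 1), 0.0% of 5200 called). At an unadjusted p under 0.05 there were 86 genes (1.65%) and 0 members. In edgeR on the recovered reads, 3 of 248 genes with at least 10 reads were called (1.21%). No member had 10 reads, so none was tested there. The median log2 fold change of the tested members was 0.94 on the log2(TPM + 1) scale, beside 0.95 for all genes tested, and 262 to 1490 symbols were above 0 in a young and 1379 to 2605 in an old library. Fitted values were 2.97 ± 1.84 for CDK5R1B and 2.29 ± 1.49 for RFC1 (SE, limma adjusted p = 0.510 for both). The TPM of 1 read differed between libraries, so fold changes depend on which library held it. For POLA1(3of3), 1 read stood for 213 TPM in young replicate 4 and for 11.5 TPM in old replicate 2. PCNA and MCM5, each with 1 read in old replicate 4 only, fell below the filter and were not tested.

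Footprint reads were set beside the RNA level per length. Of 42 member names with both an RNA ID and a footprint symbol, 20 had at least 1 footprint read, with RNA levels from 0.190 to 94.5 RPKM and a median of 10.7 RPKM over the 8 libraries. The 22 names with none had RNA levels from 0.416 to 39.0 RPKM and a median of 6.05 RPKM. Footprint reads were not scaled by length, so the 2 measures are unlike. They were also summed over all footprint copies of a name, such as 6 copies each of CDK17 and CDC42 beside 1 RNA ID. The assays used separate libraries, and these are descriptions across genes.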

How the data were processed

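For RNA, the authors deposited raw counts per gene ID; their notes name bcl2fastq 1.8.4, STAR 2.4.1d and featureCounts 1.4.6-p4, and build and strand setting for these samples are not given in the sources used here (the study's methods state both for RNA-seq of other ages aligned with TopHat2, which was not carried over). The deposited RPKM fitted the counts only with library totals recycled down the table (implied gene length varying by 0.00250%, against 17.6% with own totals), so RPKM were recomputed. For footprints, the authors deposited FPKM from RSEM 1.3.1 on NotFur1, which were rescaled here to TPM and to whole reads (symbols above 0 in 1 library counted as 1 read). The old minus young difference was fitted in edgeR 4.0.16 (quasi-likelihood, TMM, filterByExpr) for RNA and in limma 3.58.1 on log2(TPM + 1) for footprints whose mean reached 1 TPM, with Benjamini-Hochberg adjustment. DESeq2 1.42.0 was an alternative. Other alternatives changed normalization, filter, pseudocount, block and libraries. Replicate numbers were not taken as pairs. Scripts were tested on simulated data. Members and lists were chosen with earlier results of these data known. Named were 18 fixed proliferation markers, CDK5, CDC42, the 5 members with the lowest RNA p in each direction, members with footprints in at least 3 libraries or 5 reads, and the 3 lowest p of a list. Genome sequence was not used here.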

Additional observations from a re-analysis of the deposited data

Results flagged for a closer look

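In 6 of 50 groups of 4 libraries checked, the highest or lowest library lay farther from the other 3 than Dixon's 95% limit allows. Chance would give this in about 1 of 20 independent groups. The groups share the same libraries and are not independent, so the count was not tested against that rate. In young RNA, replicate 1 was low for PCNA (52.8 CPM, the others 107 to 115) and for CCNB2 (7.47 CPM, the others 38.7 to 39.2) and high for TOP2A (75.2 CPM, the others 33.4 to 39.0). In old RNA, replicate 3 was high for MKI67 (11.0 CPM, the others 5.59 to 5.92) and for CCNB1 (2.98 CPM, the others 1.62 to 1.84). In young footprints, replicate 3 gave division-role members 0.115% of its recovered reads and the others 0.278% to 0.304%, on 1 read.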

How the results depend on the processing

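RNA calls depended on the treatment of the replicate 1 libraries and on the tool. Against 57 genes and 6 members, DESeq2 called 761 and 15, limma on recomputed RPKM 86 and 10, a term for replicate 1 against the rest 4192 and 24, replicates 2 to 4 alone 5298 and 25, and no filter 37 genes. All members called under these settings were lower in old brain, except CDC42EP4 and, with the replicate 1 term, also RFC1. Pairing names by the killifish name only left 3 called members, and keeping only names also in the footprint table, an alternative chosen after seeing the data, left 4. The median of the division-role members was −0.99 with limma on RPKM, −0.95 in replicates 2 to 4 and −0.96 with upper quartile scaling. The limma and upper quartile settings moved the median of all genes by −0.17 and −0.12, which took it below 0. The cause of these shifts was not tested.

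Same-numbered RNA libraries correlated in their deviations from the age means at 0.780, 0.437, 0.00572 and 0.528, and footprint libraries at between −0.00335 and 0.0281. One RNA pair and all footprint pairs were thus near 0, and for RNA numbers 2, 3 and 4 the best correlation across different numbers was higher than that of the same number, so the numbers were not taken to pair the samples. With the replicate number as a block, 2658 RNA genes and 20 members were called, the median of the division-role members was −0.82, and no footprint gene was called.

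Leaving out 1 library in turn gave 0 to 638 RNA genes, 0 to 13 RNA members, a division-role median of −0.997 to −0.755, 0 to 0 footprint genes and members, a footprint median of 0.43 to 1.21, and member shares of 0.350% to 0.449% in young and 0.403% to 0.502% in old footprints. None of the named RNA members that were called under any setting changed direction.

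For footprints, edgeR on recovered reads called 3 genes. The member median was 2.00 without the 20 most abundant symbols, 1.76 with a pseudocount of 0.1, 0.28 with 10 and −0.28 over 3 members with a mean of at least 10 TPM. Division roles alone gave mean shares of 0.249% in young and 0.194% in old. Footprint depth, 329 to 4156 recovered reads, and the selected RNA names limit what can be said of most members.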
